A study of Mus musculus with 2 samples.

Results

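A group of 8 genes of the natriuretic peptide system were described in mouse heart, namely the peptide genes Nppa, Nppb and Nppc, the receptor genes Npr1, Npr2 and Npr3, and the protease genes Corin and Furin. They were chosen by name and matched by Ensembl identifier, and all 8 were found among the 55536 annotated genes of the deposited tables. The data were total RNA-seq of heart tissue from adult female mice of a cross between the strains 5xFAD and CAST, aged 8 to 10 months, with 300 ng of RNA per library. There was 1 group of 2 libraries, biological replicates 1 and 2, with no treatment and no other genotype to set against it. The 5xFAD strain, used to model Alzheimer's disease, carries mutant human transgenes under the neuronal Thy1 promoter, and the CAST strain descends from wild mice. Both libraries carried the same cross, their labels named different tissue samples but the same donor, and so an SD here measures only the spread between these libraries, which may be technical. Which region of the heart was sampled was not stated.

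Natriuretic peptides are hormones that lower blood pressure and blood volume. Heart muscle makes atrial natriuretic peptide (ANP, from Nppa) and B-type natriuretic peptide (BNP, from Nppb), atrial muscle far more than ventricular muscle in the healthy adult, and ventricular muscle makes more of both under load or injury. The precursors are cut by the proteases corin and furin, and the mature peptides act through the receptor guanylyl cyclases NPR-A (Npr1) and NPR-B (Npr2), which make cGMP, while NPR-C (Npr3) has no cyclase and clears peptide from the circulation. C-type natriuretic peptide (CNP, from Nppc) is the main ligand of NPR-B and comes mostly from endothelium, cartilage and brain.

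The peptides share a ring of 17 residues closed by a bond between 2 cysteines. The bases that encode this ring in Nppb and Nppc are shown because the ring is what makes these genes a family. They were read from the GENCODE M21 transcripts, located by the pattern of the ring in the reading frame, and are given 5′ to 3′ on the coding strand with the codons of the 2 ring cysteines in capitals.
Nppb: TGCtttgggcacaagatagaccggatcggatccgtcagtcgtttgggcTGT
Nppc: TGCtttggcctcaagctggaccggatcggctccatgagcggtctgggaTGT
On GRCm38 (mm10) these stretches lie at chr4:147986464-147986514 on the plus strand and chr1:86669667-86669717 on the minus strand, each within exon 2 of 3. They matched at 40 of 51 bases. After the ring, 6 codons remained in Nppb and 0 in Nppc, whose ring is the end of the protein.

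The 2 expressed peptide genes are neighbours on chromosome 4. Nppb spans chr4:147985788-147987205 and Nppa chr4:148000722-148002079, both on the plus strand, with 13517 bp between them. The 250 bases before the start of Nppa at RefSeq and GENCODE (RefSeq, GRCm38.p6, chr4:148000472-148000721, plus strand) are shown because the replicate ratios below set this gene and its neighbour apart from the 5 receptor and protease genes. Capitals mark matches on either strand to GATAA (the core bound by GATA factors), AAGTG (bound by NKX2-5), AGGTGT (bound by T-box factors), CATTCC (the M-CAT element bound by TEAD factors), TATAAA (the TATA box) and the CArG box bound by SRF.
Nppa: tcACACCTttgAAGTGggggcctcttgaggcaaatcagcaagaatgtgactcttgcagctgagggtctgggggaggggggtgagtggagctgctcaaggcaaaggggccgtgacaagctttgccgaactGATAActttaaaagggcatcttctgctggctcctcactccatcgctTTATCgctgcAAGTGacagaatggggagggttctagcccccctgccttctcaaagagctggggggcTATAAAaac
The window held 2 GATAA matches, 121 and 75 bases before the start, 2 AAGTG matches at 239 and 65 bases, 1 AGGTGT match at 248 bases and TATAAA at 9 bases. This TATAAA lies closer to the annotated start than that of Nppb (31 bases). All distances are from annotated starts, and the start in use in these hearts was not measured. Nppb has its RefSeq start 112 bases downstream of the GENCODE gene start. The stretch at chr4:147985795-147985821 holds its M-CAT and GATAA matches and lies inside the first GENCODE exon.
Nppb: GGAATGcagctGATAAatcagaGATAA
These are 1 CATTCC match on the opposite strand, 105 bases before the RefSeq start, and 2 GATAA matches at 94 and 83 bases. Outside the printed stretch, TATAAA lies 31 bases before that start.

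These motifs are short and common. Of 32851 mouse promoter windows of 300 bases in the RefSeq table, 25.4% held GATAA, 46.4% AAGTG, 13.7% AGGTGT, 14.7% CATTCC, 13.6% TATAAA and 1.63% a CArG box, and 5.27% held 2 or more GATAA matches. Among the other genes, the windows of Npr1, Npr3 and Corin held none of these 6 motifs. The Npr2 window held 1 AGGTGT match, the Nppc window TATAAA 29 bases before the start, and the upstream one of 2 Furin windows 5 AAGTG matches and TATAAA. None of the 9 windows of the 8 genes held an exact CArG box (CC, 6 bases of A or T, then GG). Only exact matches were sought, and near matches such as ctttaaaagg in the Nppa stretch were not counted. A match is a string of letters and not a measured binding site. Any part of these motifs in the replicate ratios below was not tested. The 3′ untranslated regions of the peptide genes differed as well. Nppb held 6 ATTTA pentamers, the core of AU-rich elements that shorten mRNA life, in 227 bases, a number reached by 0.146% of 4123 untranslated regions within 20% of that length. Nppa held 0 in 293 bases, as did 65.7% of 4457 regions of like length, and Nppc held 4 in 528 bases (4.8% of 4645 had as many).

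Depth was 45599940.1 and 40801298.9 expected counts (estimated reads per gene, from the authors' quantification). Levels below are TPM (length-corrected transcript abundance as a share of the library) rescaled to endogenous genes, and at least 1 TPM in both libraries is called detected, as 11716 genes were. Heart muscle markers were abundant, with the alpha heavy chain Myh6 at 7725 ± 27.7 TPM (SD, n = 2, as for all means here) and the oxygen carrier Mb at 6771 ± 266.7. The ventricular light chains Myl2 and Myl3 stood at 7882 ± 629.1 and 3544 ± 97.4 TPM and their atrial counterparts Myl7 and Myl4 at 311.5 ± 88.4 and 280.4 ± 63.03 TPM, so that both chamber programmes were present in both libraries. Of 6 lung epithelial markers 0 were detected, with Sftpc, Sftpb, Sftpa1 and Scgb1a1 at 0 counts in both.

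Of the 8 genes 7 were detected, in a range from 5.09 ± 0.536 TPM for Npr1 to 720.5 ± 310.4 for Nppa, and Nppc was not. Nppa, the ANP precursor, measured 501 TPM in replicate 1 against 939.9 in replicate 2, on 14859 and 23991 counts. By its mean it ranked 52 of 22015 nuclear protein-coding genes, next in level to the muscle LIM protein gene Csrp3 (721.1 TPM) and the respiratory chain gene Uqcrc1 (721.3). Nppb, the BNP precursor, stood at 34.5 and 64.4 TPM on 912 and 1463 counts, at rank 953. Its nearest genes in mean TPM were Mrpl15, a mitochondrial ribosomal protein gene (49.48), and Ndrg4 (49.41). For both peptide genes replicate 2 was the higher library. Likeness in mean level is all that these neighbours share with them by this measure, over 2 libraries.

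Nppc was at the edge of what this depth can show. It had 5 counts in replicate 1 and 3 in replicate 2, or 0.141 and 0.0905 TPM, where 3 counts, the number that a count of 0 still allows, correspond to 0.0845 and 0.0905 TPM. The ratio of replicate 2 over replicate 1 was 0.669 with a 95% counting interval of 0.104 to 3.44, so no direction could be read. In bulk tissue, few cells with the transcript and little transcript per cell cannot be told apart, here and for every level that follows. Gdf9, an oocyte growth factor, and Slitrk6 shared its TPM exactly, a level at which the deposited values rest on a few reads.

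**Figure D1:**
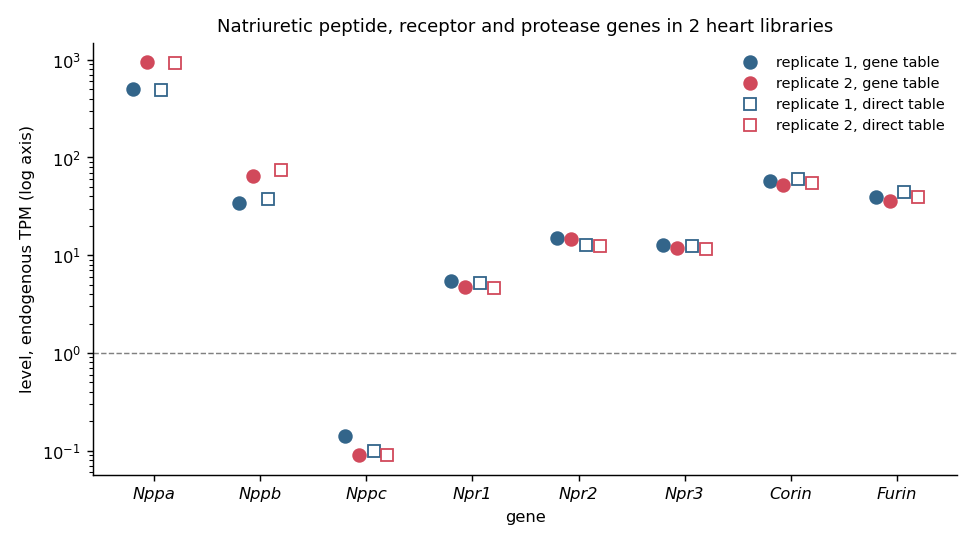
Level of each of the 8 genes in endogenous TPM on a log axis, for replicate 1 (blue) and replicate 2 (red), from the gene tables (filled circles) and from the tables derived directly from reads (open squares); the dashed line is 1 TPM. Nppa lies highest at 501 and 939.9 TPM, Nppc lies below the line, and Nppa and Nppb show a gap between the libraries. The gap of Nppc in the gene tables rests on 5 and 3 counts.

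The peptide genes kept the same proportion to each other in both libraries while their sum differed. The TPM ratio of Nppa to Nppb was 14.5 in replicate 1 and 14.6 in replicate 2. In the tables derived directly from reads, a second estimate from the same libraries, it was 12.96 and 12.4. Nppa made up 75.3% of the summed TPM of the 8 genes in replicate 1 (665.1 TPM) and 83.6% in replicate 2 (1124 TPM). The ratio of Nppa to Corin, the membrane protease of heart muscle that cuts proANP, was 8.79 in replicate 1 and 17.96 in replicate 2.

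The receptors lay far below the ANP precursor, and the cyclase-free clearance receptor stood above the ANP and BNP receptor. Npr2, the CNP receptor, was at 14.9 and 14.6 TPM on 1652 and 1426 counts. Npr3, the clearance receptor, was at 12.75 and 11.95 TPM on 2374 and 1915 counts. Npr1, the receptor of ANP and BNP, was at 5.46 and 4.71 TPM on 674 and 582 counts. That level includes non-coding transcripts, and the coding transcript Npr1-201 alone was at 4.13 and 4.32 TPM as deposited. The order Npr2, Npr3, Npr1 held in both libraries, with a TPM ratio of Npr3 to Npr1 of 2.33 and 2.54, and of Npr1 to Npr2 of 0.366 and 0.323. Only the first step of that order was narrow. Npr3 to Npr2 was 0.855 and 0.820 in the gene tables, and in the direct tables it was 0.977 and 0.943, where the ranges of the pair (11.67 to 12.45 and 12.37 to 12.74 TPM) overlapped. By counts, which are not divided by length, Npr3 exceeded Npr2 by 1.44 and 1.34 times. Its mean transcript length was longer, at 4901 and 4903 bases against 2957 and 3032 for Npr2. These mean lengths depend on the split among transcripts given below.

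Both processing enzymes were well expressed. Corin stood at 56.99 and 52.3 TPM on 10017 and 7792 counts, at rank 876 of the nuclear protein-coding genes. Furin, the convertase of the secretory pathway that cuts proBNP and proCNP, stood at 39.3 and 36 TPM on 6384 and 5032 counts, at rank 1309. Their TPM ratio, Furin to Corin, was 0.689 in replicate 1 and 0.688 in replicate 2. In the order of mean level Nppb lies between Corin and Furin, but its 2 values span both of them. It was below both in replicate 1 and above both in replicate 2, so these 3 genes have no settled order.

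The libraries were then compared gene by gene, as the log2 ratio of replicate 2 over replicate 1 from counts scaled by TMM, a factor that sets the bulk of genes to the same level. With 1 library against 1 no test exists, the 95% intervals cover counting error only, and a gene counts as apart when it differs by at least 1.5-fold with 50 or more counts on average. Nppa and Nppb were apart by nearly the same factor, and the receptors and proteases were not apart. Nppa was 1.80-fold higher in replicate 2 (log2 0.85, interval 1.76 to 1.84). Nppb was 1.79-fold higher (log2 0.84, interval 1.645 to 1.94). Of the 7 genes with enough counts, these 2 passed 1.5-fold, against 2.84% of 12495 genes in either direction and 1.31% higher in replicate 2. At 2-fold the count was 0 of 7, beside 0.584% of all genes.

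Both peptide genes lay in the tail of all genes. Of the 12495 genes, 1.02% were at least as far apart as Nppa and 1.04% as Nppb, and the central 95% of log2 ratios ran from -0.47 to 0.48. Since low counts scatter more, genes of similar depth (a mean count within 2-fold) give a closer comparison. Among 284 such genes, Nppa itself counted, 0.352% lay as far apart as Nppa, which is that gene alone. Among 4147 such genes, Nppb itself counted, 0.265% lay as far apart as Nppb. The direct tables gave a fold of 1.80 for Nppa (1.76 to 1.835) and 1.88 for Nppb (1.74 to 2.03). There 2 of 7 genes passed 1.5-fold, beside 2.66% of all.

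The receptor and protease ratios were small. Npr1 was at a fold of 0.962 (0.860 to 1.08) and Npr2 at 0.962 (0.896 to 1.03), both with an interval that includes 1. Npr3 stood at 0.899 (0.846 to 0.955), Furin at 0.8785 (0.846 to 0.912) and Corin at 0.867 (0.8415 to 0.893), each a little lower in replicate 2 beyond counting error. Differences of that size were common, since 35.9% of all genes lay at least as far apart as Npr3, 28.4% as Furin and 24.6% as Corin. The median absolute log2 ratio was 0.19 over the 7 genes and 0.11 over all genes. When libraries were scaled to the ERCC spike-ins (synthetic RNAs added before library preparation), the median log2 ratio of all genes shifted by 0.21. On that scale Npr1, Npr2, Npr3, Corin and Furin turned to 0.16, 0.16, 0.06, 0.01 and 0.03, so that their direction depends on the scaling. Nppa and Nppb went to log2 1.06 and 1.05, and 2 of the 7 genes then passed 2-fold, beside 0.816% of all genes.

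**Figure D2:**
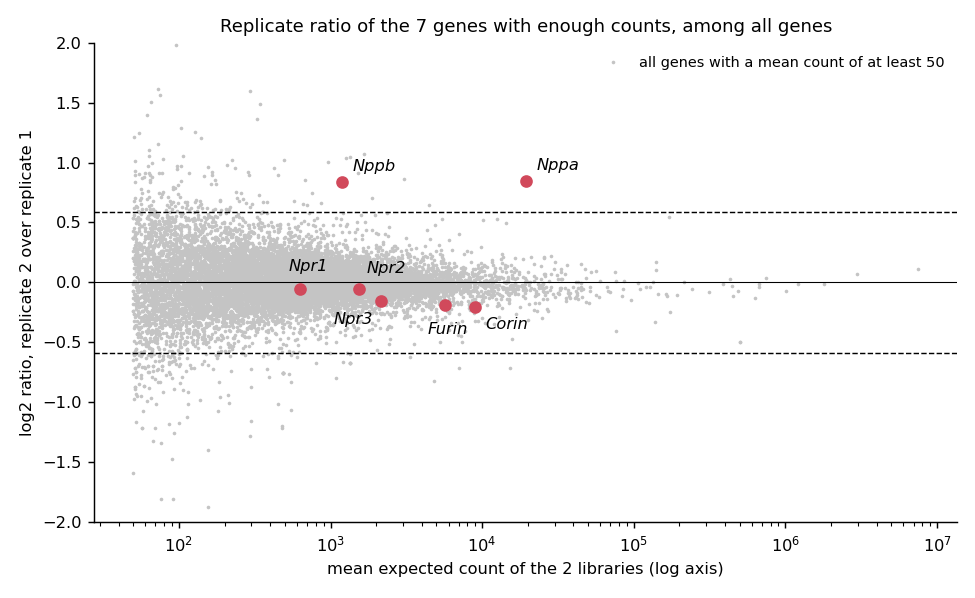
Log2 ratio of replicate 2 over replicate 1 (TMM-scaled counts) against mean expected count on a log axis, for all genes with 50 or more counts on average (grey; 21 genes beyond ±2 are outside the axis) and the 7 natriuretic genes among them (red); dashed lines mark 1.5-fold. Nppa and Nppb lie above the upper line at log2 0.85 and 0.84, while Npr1, Npr2, Npr3, Corin and Furin lie between the lines, at or just below 0.

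The gap was not seen in the genes around the pair. Within 100000 bp of the 2 genes, 6 other protein-coding genes had enough counts, with log2 ratios from -0.41 to 0.21. Of these genes 0 passed 1.5-fold, beside 2.84% of all genes, so a count of 0 is the usual outcome. They include Clcn6, a chloride transporter gene 2180 bp from Nppa (log2 -0.03), and Mfn2, a mitochondrial fusion gene at 214.5 and 229 TPM (log2 0.03). The antisense gene Gm13054 overlaps Nppa but had 7 and 5 counts, beside 14859 and 23991 for Nppa. Whether the counting used the strand is not given in the sources used here, so reads of an antisense partner cannot be told from those of the gene. The other genes that overlap a member were as low. Gm12473 (Npr2), Gm5144 (Npr3), Gm16048 (Npr1) and Gm44851 (Furin) had 9 counts or fewer in each library, and AU023070, inside Corin, had 19 and 14.

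Some markers of chamber, stress and other cell types stood higher in replicate 2 like the peptide genes, and most did not pass 1.5-fold. Of 10 atrial markers other than Nppa, all detected, 1 passed 1.5-fold (beside 2.84% of all genes in either direction and 1.31% higher in replicate 2), and their summed TPM was 1099 in replicate 1 and 1369 in replicate 2. Bmp10, a growth factor of atrial muscle, was 2.10-fold higher in replicate 2 (1.96 to 2.26), and the light chains Myl7 and Myl4 1.44-fold (1.39 to 1.497) and 1.33-fold (1.28 to 1.37). The other 7 (Sln, Kcna5, Kcnj3, Nr2f2, Clu, Dkk3 and Pam) had log2 ratios from -0.11 to 0.23. Of 9 stress genes other than the peptide genes, all detected, 1 passed, beside the same shares of all genes, with sums of 1223 and 1346 TPM. Acta1, skeletal actin, was 1.56-fold higher (1.498 to 1.63) and Ankrd1, a muscle ankyrin repeat protein, 1.44-fold (1.41 to 1.48), while Myh7, the slow heavy chain, had a log2 ratio of -0.06. Ventricular markers summed to 11041 and 12096 TPM, with 0 of 6 past 1.5-fold.

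Lists of other cell types differed in how many members stood higher in replicate 2, beside the same 1.31% of all genes past 1.5-fold in that direction and 2.84% in either. Of 7 smooth muscle and pericyte markers 3 passed (Acta2 at log2 0.91, Tagln at 0.75 and Cnn1 at 1.05), with sums of 131.8 and 170.7 TPM. Myh11 was at 0.50, while Pdgfrb, Rgs5 and Kcnj8 were at 0.10, 0.03 and -0.01. Of 8 fibroblast markers 2 passed (Col3a1 at 0.86 and Postn at 0.67), with sums of 170.3 and 207.1 TPM. Lum, Col1a1 and Col1a2 were at 0.578, 0.565 and 0.385, while Pdgfra, Dcn and Tcf21 were at 0.109, 0.035 and -0.107. Endocardial markers summed to 32.98 and 33.7 TPM (0 of 6 tested past 1.5-fold), endothelial markers to 193.8 and 188.6 (0 of 7), epicardial markers to 22 and 21.6 (0 of 5), macrophage markers to 68 and 78.2 (0 of 6, though 6 of 6 were above 0, with a median log2 ratio of 0.18) and general cardiomyocyte markers to 27754 and 30027 (0 of 8). Cardiac actin, Actc1, at 2766 and 4210 TPM (log2 0.55), made up most of that last difference, and the other 7 had log2 ratios from -0.11 to 0.09. The neuronal and Schwann cell markers summed to 4.89 and 2.655 TPM, with Th at 0 counts in both. The part of any of these in the Nppa and Nppb ratios was not tested, and the share of atrial tissue in a library cannot be told apart from the level per cell.

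**Figure D3:**
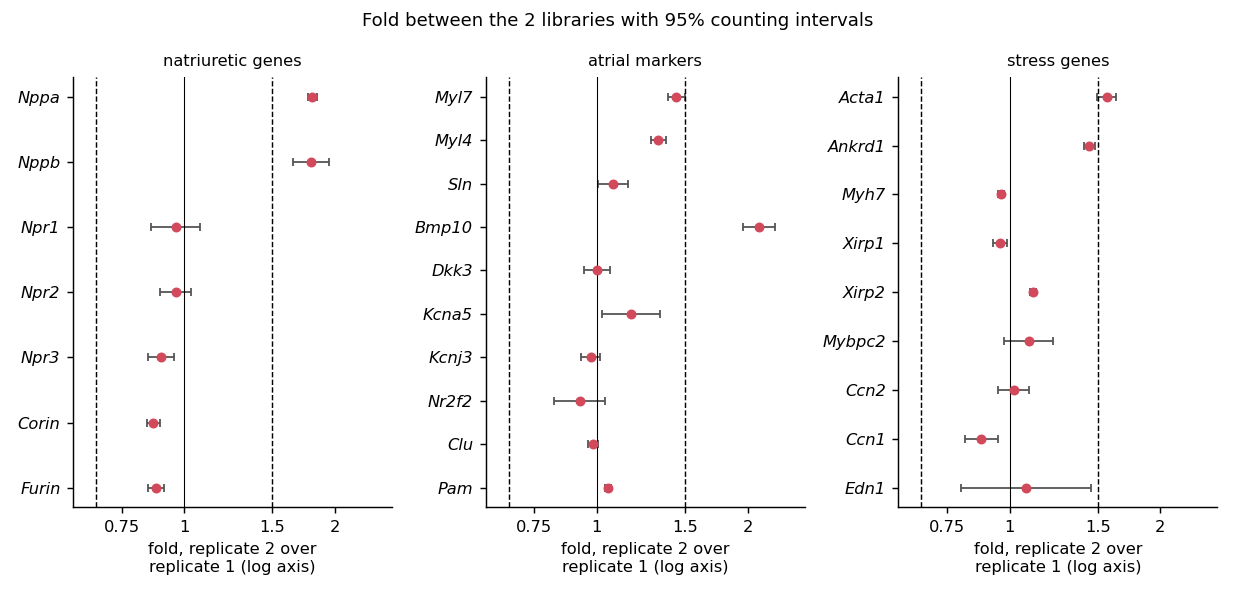
Fold of replicate 2 over replicate 1 on a log axis with 95% counting intervals for the 7 natriuretic genes with enough counts (left), the 10 atrial markers (middle) and the 9 stress genes (right); dashed lines mark 1.5-fold in each direction and the solid line a fold of 1. Nppa and Nppb at 1.80 and 1.79 lie beyond the line together with Bmp10 (2.10) and Acta1 (1.56), while Myl7, Myl4 and Ankrd1 lie between 1.33 and 1.44 and most other markers near 1.

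The tables also split each gene's TPM among its annotated transcripts, which bears on which protein is encoded. Nppa, Nppb and Nppc have 1 transcript each, of 865, 781 and 1042 bases, so their levels do not depend on such a split. Npr1-201, the full-length receptor of 1057 codons on chr3:90450591-90465866 (minus strand), held 76.1% of the Npr1 TPM in replicate 1 and 92.2% in replicate 2 in the alignment-based tables, and 77.25% and 87.2% in the direct tables. Most of the rest in replicate 1 was on the retained-intron models Npr1-204 (9.2%) and Npr1-205 (8.14%), which were lower in replicate 2 (3.64% and 0%). These shares rest on 674 and 582 counts for the whole gene.

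For Npr2 (chr4:43631935-43651244, plus strand) the main transcript Npr2-201, with 1047 codons, held 64.5% and 66.55% in the alignment-based tables and 76.1% and 82.7% in the direct tables. The estimates disagreed on Npr2-205, a shorter model that lacks the first 5 coding exons of Npr2-201 and holds 612 codons. It held 17.1% and 21.03% by alignment, and 1.77e-08% and 4.22% directly. Npr2-203, a partial model of 175 codons, held 8% and 4.92% by alignment and 12.4% and 6.75% directly.

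Npr3 (chr15:11839896-11907287, minus strand) was split between a pair of full-length models in every table. Npr3-201, of 536 codons, held 55.5% and 55.8% by alignment and 49.9% and 52.1% directly. Npr3-205, of 535 codons, held 39.7% and 38.2% by alignment and 32.1% and 30.3% directly. Their coding sequences differ by 3 bases at the start of 1 coding exon, 1605 bases being shared, and by the length of the transcript, 6892 against 2437 bases, mostly in the 3′ untranslated region. The non-coding Npr3-202 was listed at 0% by alignment and held 10.3% and 6.04% directly.

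Corin (chr5:72300025-72504473, minus strand) had TPM assigned to transcripts with 2 different first exons. Corin is a membrane protein whose N-terminus lies in the cytoplasm, and Corin-201 and Corin-202 share 21 of 22 coding exons and differ in the first, which encodes 267 bases in Corin-201 and 69 in Corin-202. Corin-201, of 1113 codons, held 72.5% and 76.3% by alignment and 47.55% and 49.3% directly. Corin-202, of 1047 codons, held 23.3% and 15.4% by alignment and 27.0% and 24.3% directly. Corin-207, which starts like Corin-202 and lacks a further coding exon, held 0% and 3.6% by alignment and 11.2% and 14.9% directly. Corin-201 was thus the main transcript in both libraries and both kinds of table, by a margin that depended on the table.

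Furin (chr7:80388585-80405436, minus strand) had different first exons and a different share on coding transcripts in the 2 kinds of table. Protein-coding transcripts held 97.5% and 98.7% of its TPM by alignment and 81.2% and 83.99% directly. Furin-203 and Furin-201 have the same 2379 coding bases (793 codons) and differ only in a non-coding first exon. Furin-203 held 95.9% and 98.7% by alignment, where Furin-201 was listed at 0%, with upper credibility bounds of 2.602 and 2.44 TPM. The direct tables gave Furin-203 50.9% and 66.96% and Furin-201 29.4% and 16.2%, and placed 16.9% and 14.45% on Furin-208, a nonsense-mediated decay model of 378 bases. RefSeq lists 2 Furin start sites 2624 bp apart, the upstream one with 51.3% G and C in its 300-base window and the downstream one with 82.3%, against a median of 52.7% over all windows.

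**Figure D4:**
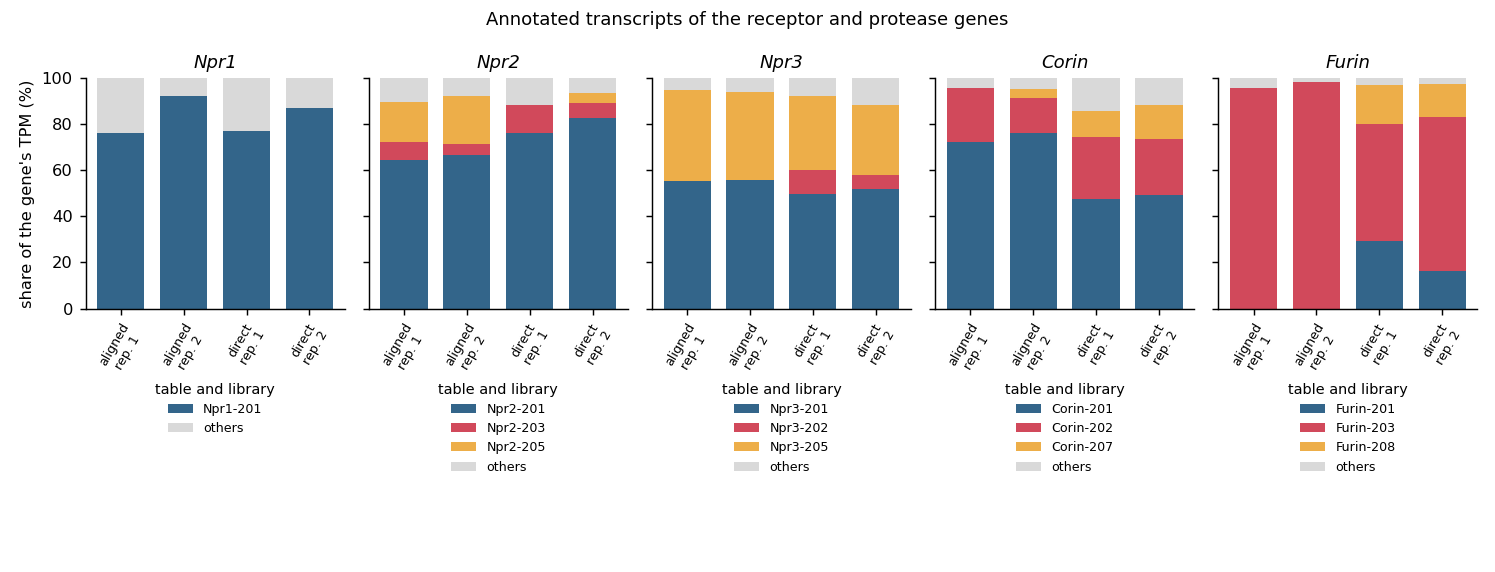
Share of the gene's TPM in percent on each annotated transcript with at least 10% in any table, and on all others (grey), for Npr1, Npr2, Npr3, Corin and Furin; the 4 bars per gene are the alignment-based and the direct tables of replicates 1 and 2. The replicates resemble each other within a kind of table more than the kinds do for Npr2, Corin and Furin, as for Furin-201, at 0% by alignment and 29.4% and 16.2% directly.

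Around the 8 genes, 62 further genes of the pathway were looked up, of which 39 were detected. Of 44 with enough counts, 1 passed 1.5-fold toward replicate 2 and 0 toward replicate 1, beside the 2.84% of all genes. Among peptidases that degrade the peptides, the insulin-degrading enzyme Ide stood at 18.4 ± 1.13 TPM, neprilysin (Mme) at 4.44 ± 0.468 and Dpp4 at 2.27 ± 0.25. The meprins Mep1a and Mep1b had 0 counts, and Ostn, which encodes the NPR-C ligand osteocrin, had 2 and 0. Neprilysin is the target of the heart failure drug sacubitril.

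Of 7 other proprotein convertases 3 were detected. Pcsk6, or PACE4, which activates corin, measured 8.42 TPM in replicate 1 against 14.0 in replicate 2. Its counts, 1316 and 1582, differed less (log2 0.42, a fold of 1.34 after scaling, with an interval of 1.24 to 1.44). Mbtps1 (10.5 ± 0.0613 TPM) and Pcsk7 (5.39 ± 0.439) were closer between the libraries. Pcsk1 and Pcsk2, the convertases of neuroendocrine granules, had 5 counts or fewer, and Pcsk5 stood at 0.745 and 0.724 TPM. Furin thus stood above these convertases in TPM in both libraries.

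Of 8 other guanylyl cyclases, the detected ones were 3 subunits of the soluble enzyme that senses nitric oxide, Gucy1a1 (5.50 ± 0.702 TPM), Gucy1b1 (4.01 ± 0.589) and Gucy1a2 (2.69 ± 0.198). They were of the same order as Npr1. The guanylin receptor Gucy2c of the gut had 0 and 1 counts and the photoreceptor cyclase Gucy2f 0 in both. Downstream of cGMP, 6 of 10 effectors were detected, with the myosin phosphatase subunit Ppp1r12a at 19.2 ± 0.625 TPM, Rgs2 at 14.1 ± 1.02, the kinase substrate Vasp at 6.60 ± 1.10 and Mrvi1 at 4.53 ± 0.624. Rgs4, an inhibitor of Gq and Gi signalling, was the gene past 1.5-fold, at 2.00 and 3.54 TPM (fold 1.625, interval 1.36 to 1.94). Prkg2, the cGMP kinase of gut and cartilage, stood at 0.0805 and 0.171 TPM, while the other cGMP kinase gene, Prkg1, was detected at 4.30 and 4.66 TPM.

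Of 12 phosphodiesterases that break down cGMP, 6 were detected. Pde1c (24.1 ± 1.10 TPM), Pde3a (23.9 ± 0.330) and Pde2a (17.4 ± 1.76) led, followed by Pde1a (2.06 ± 0.156). Pde5a, the target of sildenafil, lay at the threshold, at 0.936 and 1.126 TPM in the gene tables and 1.43 and 1.84 in the direct tables. Pde6a and Pde6b, the photoreceptor enzymes, had 2 counts or fewer in the gene tables. The direct tables gave Pde6a 0.662 and 1.129 TPM, so its level is uncertain.

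Transcription factors known to act on Nppa and Nppb were nearly all present. Of 19, 18 were detected, with a median log2 ratio of -0.03, beside 0.00 over all genes. Of these 18 genes 0 passed 1.5-fold, beside 2.84% of all genes, so a count of 0 is the usual outcome. Tead1, which binds M-CAT elements, was highest at 53.6 ± 0.0772 TPM, followed by Mef2a (43.1 ± 0.182), Mef2d (41.4 ± 1.54) and Gata4 (35.2 ± 1.88). The log2 ratios of the 18 ranged from -0.41 (Hey2) to 0.29 (Mef2c), beside 0.85 for Nppa and 0.84 for Nppb.

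**Figure D5:**
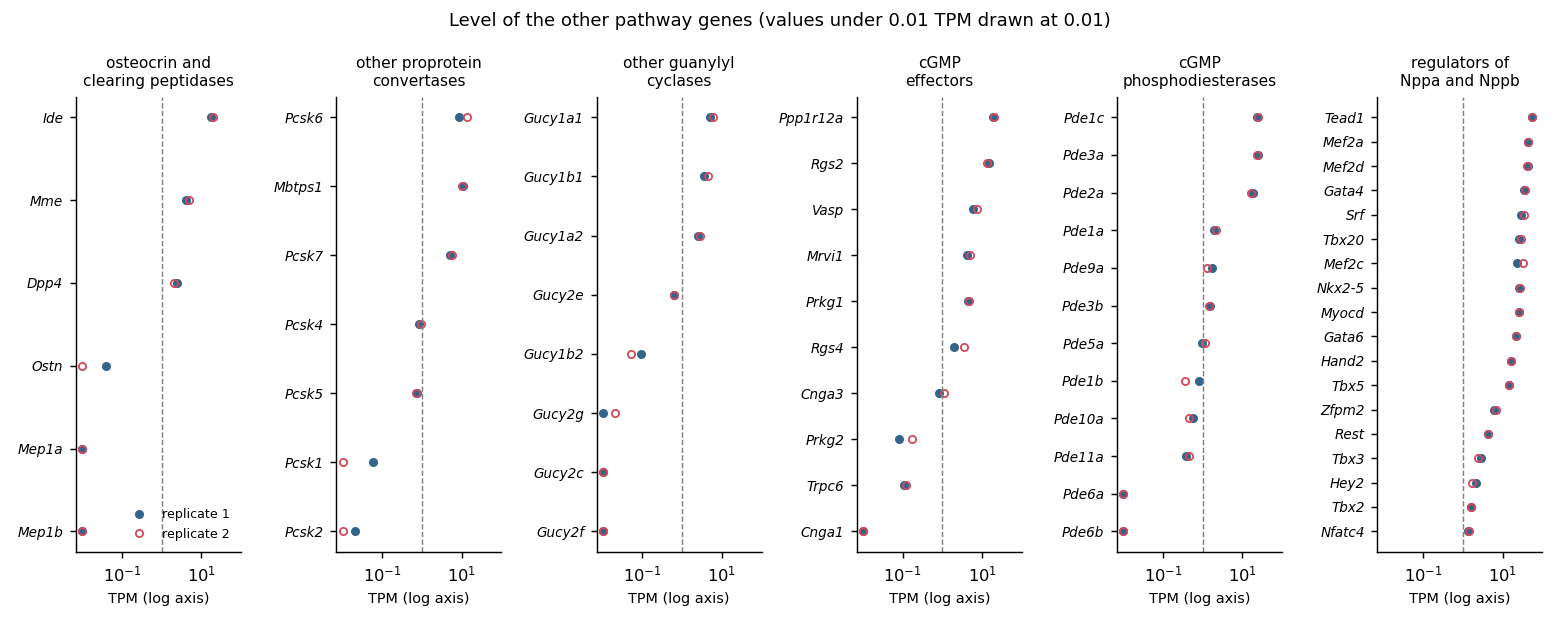
Level of 61 of the 62 other pathway genes in endogenous TPM on a log axis, in 6 groups, for replicate 1 (filled blue) and replicate 2 (open red); the dashed line is 1 TPM. The last group shows the 18 detected regulators. The replicates overlap for most genes, Rgs4 and Pcsk6 show a gap, and genes of gut or retina such as Gucy2f and Pde6b lie at the left edge.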

How the data were processed

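Per the labels, 2 directional total RNA libraries of heart with ERCC spike-ins formed 1 group. The authors deposited expected counts, and estimated counts for the quantification made directly from reads, as raw estimates on mm10 with GENCODE M21 per the README files deposited beside the tables. TPM values were deposited by the authors scaled over all entries including spike-ins, with lower and upper credibility bounds. Per the file headers, the authors also gave each transcript's percent of its gene's TPM for the alignment-based quantification. Aligner, quantifiers and versions are not given in the sources used here.

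TPM was rescaled to endogenous genes. Direct estimates were summed per gene. Counts were rounded and scaled by TMM (edgeR 4.0.16, R 4.3.3, over genes averaging 10 or more counts), and log2 ratios carried a prior count of 2. Folds have exact conditional binomial 95% intervals, which cover counting error only. The ratio step was also run on simulated counts whose spread was assumed and not estimated from these libraries, so that run does not support the values here. Python 3.11.15 with scipy 1.17.1 did the rest. The members, lists and settings were chosen with earlier results of these data known. Named were the members, up to 4 highest and any gene past 1.5-fold of each pathway list, up to 3 not detected, leading or differing markers, and nearest or overlapping genes. Other markers and Prkg1 were named after their values were seen. Tried instead were scaling by library size, spike-in totals or DESeq2 1.42.0, other prior counts, thresholds, the direct tables and each library alone. Promoter windows (250 bases before to 50 after a start) were from RefSeq. Reads of the transgenes and CAST alleles were not analysed here. Some values of single genes and sequences are not reported here.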

Additional observations from a re-analysis of the deposited data

How the results depend on the processing

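The ratios of Nppa and Nppb stayed above 1.5-fold under every scaling, prior count and table tried. With spike-in totals their log2 ratios were 1.06 and 1.05, and at a 2-fold threshold with TMM scaling 0 members passed. Rescaling over nuclear protein-coding genes alone gave 2112 TPM for Nppa and 145 for Nppb. Each library alone gave 501 and 939.9 TPM for Nppa, 34.54 and 64.39 for Nppb. The Nppa to Nppb ratio was 12.68 in the direct tables and 16.35 by expected counts (14.5 and 14.6 per library), Npr3 to Npr1 was 3.406 by expected counts (2.333 and 2.538 per library). Npr1 to Npr2 was 0.3888 directly and 0.4081 by expected counts (0.323 and 0.3664 per library), and Furin to Corin 0.7295 and 0.6416 (0.6878 and 0.6894 per library). At 5 TPM 24 pathway genes were detected, at 0.5 TPM 44. No direction of a called value reversed. With 2 libraries of 1 group, no difference could be tested, and depth limits Nppc most. No paired analysis was possible because the result comes from no test between groups.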
